A study of Saccharomyces cerevisiae with 8 samples.

Results

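The genes described here are 9 amino acid permease genes (AGP1, GNP1, BAP2, BAP3, TAT1, TAT2, GAP1, MUP1 and DIP5) and VBA5, a gene of the major facilitator superfamily. They were taken from the tables of gene expression by systematic name, and all 10 were found among the 6170 genes listed. The set was chosen by gene name with the expected counts, FPKM values and stage and strain changes of these same libraries already known, so the values of its members below are a description and carry no p value. The data are mRNA sequencing of 2 Saccharomyces cerevisiae strains engineered to ferment xylose, each in 2 stages of bioreactor fermentation and each stage in duplicate, which gave 8 libraries. XH7 is labelled as carrying xylose isomerase inserted at PHO13 and at delta sequences (pho13::XI, 3δ::XI), genes of the pentose phosphate pathway at GRE3 (gre3::PPP) and overexpressed xylulokinase (XK), and was evolved on xylose. BSGX001 is labelled as carrying a rumen xylose isomerase (Ru-XI), the same gre3::PPP and XK alterations and a deletion of COX4 (cox4Δ), and was evolved on xylose as well. The sample labels trace both strains to CEN.PK 113-5D, whereas the methods of the study describe XH7 as built from a diploid wild isolate and BSGX001 as haploid. Each strain is a single evolved line. GX stage cells were sampled at 14 h from a fermentation started with glucose and xylose at 20 g/L each, after the glucose was used up, and X stage cells at 12 h from a fermentation with 20 g/L xylose. The labels describe yeast nitrogen base with ammonium sulfate as the medium, and the methods of the study a synthetic complete medium with an amino acid mixture. The amino acids outside the cells therefore cannot be stated from these sources.

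Yeast takes up amino acids through permeases of the plasma membrane, each with its own range of substrates. Several of these genes are induced by amino acids in the medium through the SPS sensor (Ssy1, Ptr3 and Ssy5), which activates the transcription factors Stp1 and Stp2. GAP1 is instead controlled mainly by nitrogen catabolite repression through GATA factors, which bind GATAAG, and genes of amino acid synthesis are activated by Gcn4, which binds TGACTCA. The comparison of the stages asked how cells that ferment xylose after glucose differ from cells that ferment xylose alone, since xylose is used more slowly after glucose.

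The libraries held 5279864 to 7675099 counts and detected 6020 to 6100 genes, and 5921 genes had enough counts to be tested. COX4, deleted in BSGX001, had 0 counts in the 4 BSGX001 libraries and 253 to 426 CPM in the 4 XH7 libraries. The other labelled insertion sites did have reads, GRE3 at 26.7 to 68.5 CPM in XH7 and 41.6 to 60.2 CPM in BSGX001, and PHO13 at 45.2 to 68.5 CPM in XH7, against 63.7 to 136 CPM in BSGX001, where the labels name no change of it. The introduction of the study describes PHO13 as deleted in both strains, while its strain list names a change of it in XH7 alone. Which part of GRE3 and PHO13 these reads came from was not tested. The GX libraries of BSGX001 were the closest pair of replicates. Its X libraries stood the farthest apart, with a chi-square per degree of freedom of 37.3 between the 2 libraries, against 4.08 to 18.8 in the other pairs. This value measures spread beyond counting error over all genes together. Genes with high counts weigh most in it, so it is not the spread of a single gene. Levels of a gene across libraries are given as CPM, counts scaled to library size with TMM factors, and levels between genes as FPKM, which is divided by gene length. A change is a log2 ratio ± standard error from 1 fit to the 8 libraries (n = 2 per group). The standard error was calculated as the size of the log2 ratio divided by the square root of its F statistic. It is an approximation, least exact for large changes that rest on few counts. "Rose" and "fell" are used only where the change passed the limit, an adjusted p of 0.05 or less over all genes tested. For the members, chosen with these changes known, passing or not passing the limit is a description and not a test. In bulk RNA, a change in every cell and a change in a part of the cells cannot be told apart.

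Reference sequence around 4 of the genes is shown first, because the results turn on how unlike these genes behaved and because the reads of VBA5 are hard to assign. The S288C reference (RefSeq, build R64) was used, which is not the sequence of either strain. The part from 250 to 101 bases before the start codon is shown for AGP1 and GNP1, which rose in the GX stage of XH7, and for MUP1 and GAP1, which were the members with a motif match. MUP1 rose in the GX stage of XH7 as well, as did BAP2, BAP3, TAT2 and VBA5. Capitals mark the match. The windows are AGP1 at chrIII:78020-78169 (minus strand), GNP1 at chrIV:1468545-1468694 (minus strand), MUP1 at chrVII:599167-599316 (plus strand) and GAP1 at chrXI:514813-514962 (plus strand).
AGP1: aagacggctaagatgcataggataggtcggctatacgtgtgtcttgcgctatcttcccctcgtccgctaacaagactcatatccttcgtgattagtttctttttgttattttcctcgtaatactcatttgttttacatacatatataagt
GNP1: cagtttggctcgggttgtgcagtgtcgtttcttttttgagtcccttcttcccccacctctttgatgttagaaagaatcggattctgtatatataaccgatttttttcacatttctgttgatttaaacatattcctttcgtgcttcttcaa
MUP1: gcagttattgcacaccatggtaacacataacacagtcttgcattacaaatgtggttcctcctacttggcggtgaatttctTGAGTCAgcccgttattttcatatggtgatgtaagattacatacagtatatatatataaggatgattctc
GAP1: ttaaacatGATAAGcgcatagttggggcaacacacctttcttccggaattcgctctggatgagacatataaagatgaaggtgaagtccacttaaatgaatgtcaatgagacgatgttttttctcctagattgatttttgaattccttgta
Both motifs were searched on both strands from 250 bases before to 50 bases after the first base of the start codon. GATAAG was found in 881 of 6020 promoters (14.6%) and, among the 10 members, in that of GAP1, starting at position -242. TGACTCA was found in 164 promoters (2.72%) and, among the members, in that of MUP1 at position -170, where the shown strand reads TGAGTCA. The other 8 members had neither match in this window.

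AGP1, the broad-specificity permease for most amino acids (YCL025C, chrIII:76018-77919), moved in opposite directions in the 2 strains. It had 170 and 164 CPM in GX cells of XH7, against 30.1 and 28.5 CPM in X cells of XH7. In BSGX001 it had 76.9 and 83.1 CPM in GX cells, against 153 and 111 CPM in X cells. The stages did not overlap in either strain, and the order was reversed between them. AGP1 thus rose by 2.51 ± 0.16 in XH7 and fell by 0.72 ± 0.14 in BSGX001 on the log2 scale, and the BSGX001 value was -0.46 when X replicate 1 was left out. The log2 ratio of XH7 over BSGX001 was 1.06 ± 0.14 in the GX stage and -2.17 ± 0.16 in the X stage. The difference of the stage changes, XH7 minus BSGX001, was 3.24 ± 0.21.

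GNP1, the high-affinity glutamine permease (YDR508C, chrIV:1466453-1468444), shares 73.0% of 1539 aligned coding bases with AGP1, the closest relative of GNP1 among the members by that measure. Its level in XH7 was 269 and 214 CPM in GX cells and 46.9 and 43.8 CPM in X cells. In BSGX001 the GX cells had 64.1 and 61 CPM and the X cells 37.6 and 51.7 CPM. The 2 GX libraries of XH7 stood above all others, and the remaining 6 lay close together. The rise was 2.42 ± 0.17 in XH7 and 0.49 ± 0.16 in BSGX001, and the call in BSGX001 was lost when X replicate 1 (0.29), GX replicate 1 (0.45) or GX replicate 2 (0.52) was left out, on log2(FPKM + 1) (0.50) and with the replicate block (0.49). XH7 exceeded BSGX001 by 1.95 ± 0.16 in the GX stage, while the X stage gave 0.02 ± 0.17 with overlapping libraries. With library totals in place of TMM that X stage value was -0.26. The difference of the stage changes was 1.93 ± 0.23.

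BAP2 and BAP3 are permeases of the branched-chain amino acids leucine, isoleucine and valine, and share 71.5% of 1513 aligned coding bases. BAP2 (YBR068C, chrII:373861-375690) had 133 and 140 CPM in GX cells of XH7, against 73.8 and 63.6 CPM in X cells. BSGX001 had 108 and 89.7 CPM in GX cells, against 61.3 and 79.7 CPM in X cells. BAP2 rose in the GX stage of both strains, by 1.00 ± 0.15 in XH7 and by 0.49 ± 0.15 in BSGX001, the smaller rise being lost when X replicate 1 (0.33) or GX replicate 1 (0.35) of BSGX001 was left out. XH7 over BSGX001 gave 0.47 ± 0.14 in the GX stage, which was lost when GX replicate 2 of BSGX001 (0.35) or of XH7 (0.44) was left out, with library totals (0.37) and on log2(FPKM + 1) (0.36) or log2(FPKM + 0.1) (0.36). In the X stage the strains overlapped (-0.04 ± 0.15). The change of the stage did not differ between the strains past the limit (0.51 ± 0.21), though it did when X replicate 1 of BSGX001 was left out (0.64) and with library totals (0.69).

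BAP3 (YDR046C, chrIV:548762-550576) showed a large change in XH7 and a spread of values in BSGX001. It had 123 and 114 CPM in GX cells of XH7, against 16 and 14.1 CPM in X cells. In BSGX001 it had 141 and 113 CPM in GX cells, against 29.5 and 103 CPM in X cells, so that the 2 X libraries of this strain differed more from each other than its stages did. BAP3 rose by 2.98 ± 0.50 in XH7. The change in BSGX001 was 0.94 ± 0.41 and did not pass. It was 0.32 with X replicate 1 left out, and it passed at 2.10 with X replicate 2 left out. The same 2 libraries moved the strain comparison in the X stage, where XH7 was lower than BSGX001 (-2.14 ± 0.51), at -2.75 with replicate 1 and -0.98 with replicate 2 of BSGX001 left out. In the GX stage the strains overlapped (-0.10 ± 0.40). The difference of the stage changes, 2.04 ± 0.65, passed with all libraries and did not pass when any 1 of the 6 libraries other than those of the X stage of BSGX001 was left out (values from 1.89 to 2.21). With X replicate 1 or 2 of BSGX001 left out it was 2.63 or 0.88. The call was also lost with DESeq2 (1.99), on log2(FPKM + 1) (1.84) and log2(FPKM + 0.1) (1.96) and with the replicate block (1.98).

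TAT1 and TAT2 carry tyrosine and tryptophan, TAT2 with high affinity for tryptophan. TAT2 (YOL020W, chrXV:286172-287950) was higher in GX cells of XH7 than in the other 3 groups, which were close to each other. It had 180 and 213 CPM in GX cells of XH7, against 98.3 and 94.8 CPM in X cells. The BSGX001 values were 93.4 and 102 CPM in GX cells, against 95.6 and 88.7 CPM in X cells. The rise was 1.03 ± 0.11 in XH7, with 0.09 ± 0.11 and overlapping stages in BSGX001, and the difference of the stage changes was 0.94 ± 0.16. XH7 over BSGX001 gave 1.01 ± 0.11 in the GX stage and 0.07 ± 0.11 in the X stage, where library totals gave -0.22.

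TAT1 (YBR069C, chrII:376574-378433) differed by strain more than by stage. Its level was 24.8 and 21.8 CPM in GX cells and 27.3 and 24 CPM in X cells of XH7. In BSGX001 it was 18 and 15.1 CPM in GX cells and 13 and 12.4 CPM in X cells. The 4 libraries of XH7 lay above the 4 of BSGX001. XH7 exceeded BSGX001 by 1.01 ± 0.16 in the X stage and by 0.49 ± 0.15 in the GX stage, and the GX call was lost when replicate 2 of BSGX001 (0.37) or replicate 1 of XH7 (0.39) was left out, with library totals (0.39) and with DESeq2 (0.48). The stage change was -0.13 ± 0.15 in XH7, where library totals gave 0.06, and 0.39 ± 0.16 in BSGX001, neither past the limit. TAT1 overlaps the noncoding gene YNCB0014W in R64 and the strand of counting is not given in the sources used here, so reads of the pair cannot be told apart.

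GAP1, the general amino acid permease (YKR039W, chrXI:515063-516871), was the only member below BSGX001 in both stages of XH7 with both changes past the limit. It had 16.7 and 17 CPM in GX cells of XH7, against 24.3 and 18.4 CPM in X cells. In BSGX001 it had 39.5 and 37.6 CPM in GX cells, against 68.8 and 33 CPM in X cells. The log2 ratio of XH7 over BSGX001 was -1.19 ± 0.32 in the GX stage and -1.27 ± 0.31 in the X stage. The X stage value was -0.60 with replicate 1 of BSGX001 left out, and its call was lost with replicate 2 of XH7 left out (-1.04). The stage changes, -0.33 ± 0.35 in XH7 and -0.40 ± 0.28 in BSGX001, did not pass. The BSGX001 value turned to 0.25 with X replicate 1 left out, and passed at -0.84 with X replicate 2 left out.

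MUP1, the high-affinity methionine permease (YGR055W, chrVII:599417-601141), had the highest FPKM of the 10 genes in 3 of the 4 groups. It had 704 and 837 CPM in GX cells of XH7, against 369 and 294 CPM in X cells. BSGX001 had 316 and 310 CPM in GX cells, against 191 and 317 CPM in X cells, where the stages overlapped. MUP1 rose by 1.22 ± 0.22 in XH7. In BSGX001 the change of 0.30 ± 0.22 did not pass, and it passed at 0.71 with X replicate 2 left out. XH7 exceeded BSGX001 by 1.30 ± 0.22 in the GX stage. The X stage gave 0.38 ± 0.22, which passed only with replicate 2 of BSGX001 left out (0.80). The difference of the stage changes, 0.92 ± 0.31, passed narrowly. The call was lost when any 1 library other than X replicate 1 of BSGX001 was left out, with values from 0.51 to 1.04. It was also lost with DESeq2 size factors (0.86), the stricter filter (0.91), log2(FPKM + 0.1) (1.06) and the replicate block (0.88).

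DIP5, the permease of the acidic amino acids glutamate and aspartate (YPL265W, chrXVI:41043-42869), showed the widest gap between the strains in the X stage among the permeases. Its level was 584 and 597 CPM in GX cells and 398 and 553 CPM in X cells of XH7. In BSGX001 it was 93.9 and 86.9 CPM in GX cells and 33.5 and 38.2 CPM in X cells. All 4 libraries of XH7 stood several-fold above all 4 of BSGX001, by 2.71 ± 0.16 in the GX stage and by 3.73 ± 0.17 in the X stage on the log2 scale. The order of the strains in stage change was the reverse of that of AGP1. DIP5 rose by 1.33 ± 0.16 in BSGX001, and its change in XH7 was 0.31 ± 0.15 and did not pass, though it passed at 0.54 with X replicate 2 of XH7 left out and at 0.51 with library totals. The difference of the stage changes was -1.02 ± 0.22.

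**Figure D1:**
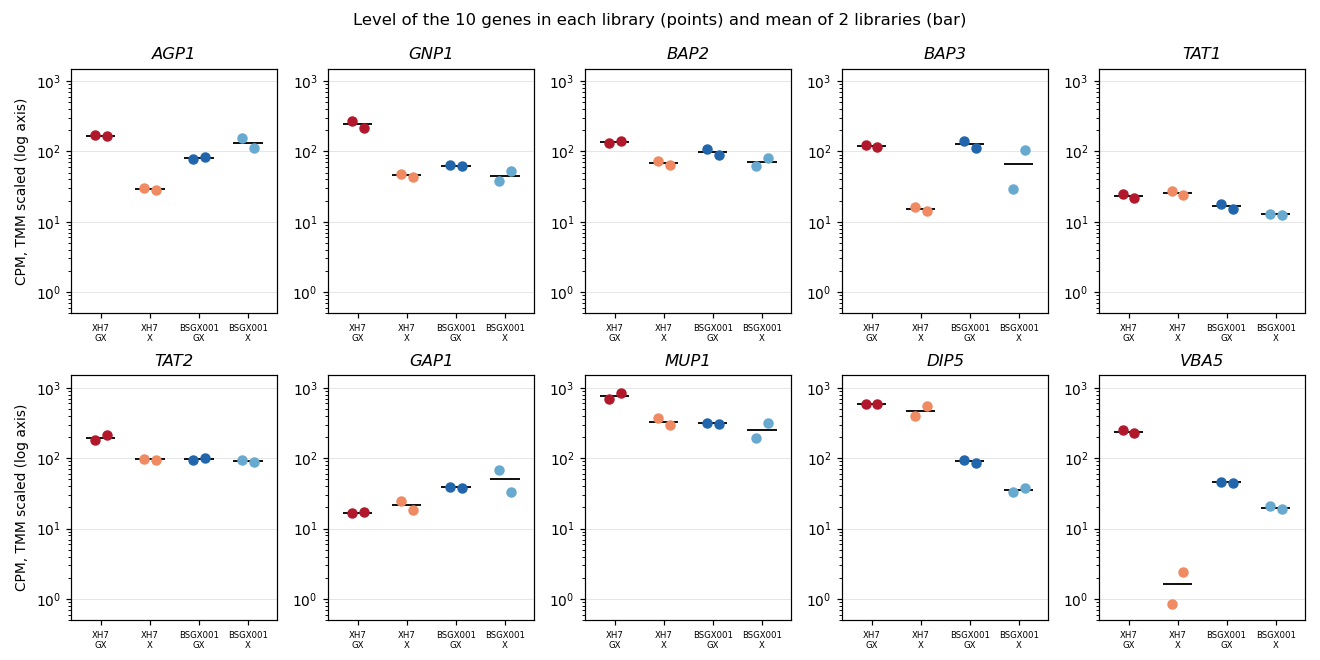
CPM scaled by TMM (log axis) of each of the 10 genes in GX and X cells of XH7 and of BSGX001, with 1 point per library and a bar at the mean of 2 libraries. VBA5 spans from 0.853 CPM in an X library of XH7 to 248 CPM in a GX library of XH7, while TAT1 stays between 12.4 and 27.3 CPM.

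VBA5 (YKR105C, chrXI:658716-660464, minus strand) changed more than any other member. It is a plasma membrane protein linked in S. cerevisiae to the uptake of basic amino acids and to drug sensitivity, and it lies 6352 bases from the right end of chromosome XI. It had 248 and 231 CPM in GX cells of XH7, against 0.853 and 2.4 CPM in X cells. In BSGX001 it had 45.8 and 45.1 CPM in GX cells, against 20.9 and 18.9 CPM in X cells. The GX libraries of XH7 were the highest of all 8 and its X libraries the lowest, with BSGX001 between them. VBA5 rose by 7.12 ± 0.21 on the log2 scale in XH7, a ratio of 139, and by 1.19 ± 0.15 in BSGX001, a ratio of 2.28. The log2 ratio of XH7 over BSGX001 was 2.40 ± 0.13 in the GX stage and -3.53 ± 0.26 in the X stage. The difference of the stage changes was 5.93 ± 0.28.

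The depth behind the X value of XH7 was small. The standard errors above therefore understate the uncertainty of the VBA5 changes that rest on it. The expected counts of VBA5 were 1560.8 and 1253.8 in GX libraries of XH7, against 4.46 and 13.81 in X libraries, and the rise in XH7 was 8.08 with X replicate 2 and 6.60 with X replicate 1 left out. The strain gap in the X stage ranged from -4.49 to -3.00 in the same way, and the difference of the stage changes from 5.39 to 6.87. In BSGX001 VBA5 had 369 and 352 expected counts in GX libraries, against 171 and 145 in X libraries, so its level there does not rest on few reads.

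VBA3, a transporter of basic amino acids in the vacuole membrane (YCL069W, chrIII:9706-11082), is a near copy of VBA5, and the 2 coding sequences are shown where they differ most. All 1377 bases of VBA3 align with the last 1377 of the 1749 coding bases of VBA5 at 99.3% identity, with 9 differences and a run of 481 bases without any. The stretch covers coding bases 373 to 472 of VBA5 and 1 to 100 of VBA3, and the capitals mark its 3 differences.
VBA5: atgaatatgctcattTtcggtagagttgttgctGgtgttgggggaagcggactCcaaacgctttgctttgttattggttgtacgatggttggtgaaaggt
VBA3: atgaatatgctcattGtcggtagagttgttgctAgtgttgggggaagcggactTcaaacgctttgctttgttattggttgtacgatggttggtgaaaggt
Short reads from much of the shared sequence cannot be told apart. VBA3 had 36.2 and 67.2 expected counts in GX libraries of XH7, against 5.54 and 0.19 in X libraries, and 0 in all 4 libraries of BSGX001. The change of VBA3 in XH7 was 3.91 ± 0.82 and passed the limit. Its reads cannot all be separated from those of VBA5, so no p value is given. Whether its counts came from VBA5 was not tested. With the counts of both genes added together, the stage change was 6.76 in XH7 and 1.19 in BSGX001.

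The 2 listed genes next to VBA5 on its centromere side were looked at after their values were seen. NFT1, an ABC transporter gene, and YKR104W had 0 counts in all 4 libraries of XH7, which allows up to 0.477 to 0.64 CPM on the TMM scale. In BSGX001 NFT1 had 246 and 196 counts in GX libraries and 173 and 206 in X libraries, and YKR104W 61 and 67 in GX libraries and 77 and 76 in X libraries. Reads of both strains were counted on gene models named for CEN.PK113-7D. Whether gene content or sequence of XH7 differs from those models was not tested, at this chromosome end or at the other genes compared between the strains.

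**Figure D2:**
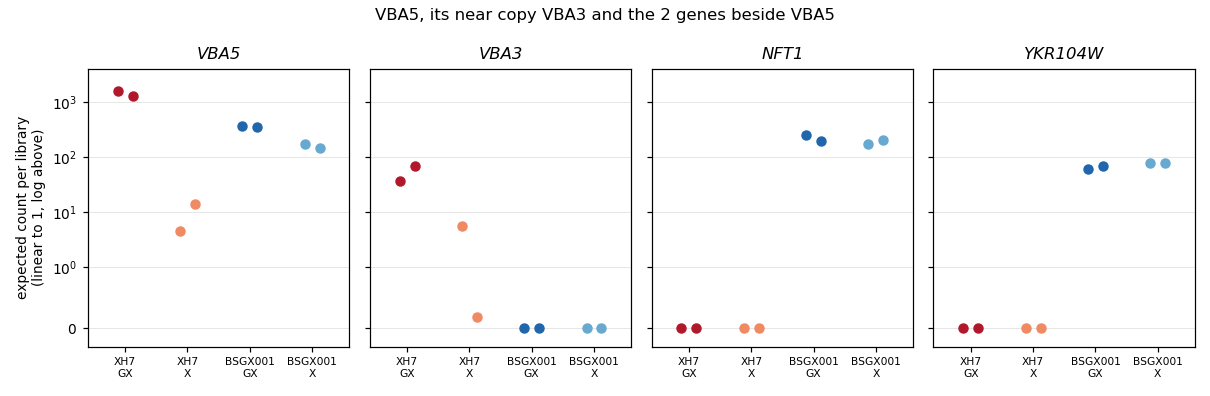
Expected counts per library (linear up to 1, logarithmic above) of VBA5, VBA3, NFT1 and YKR104W in GX and X cells of XH7 and of BSGX001, 1 point per library. NFT1 and YKR104W have 0 counts in XH7 and VBA3 has 0 counts in BSGX001, while VBA5 is counted in all 8 libraries.

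In the GX stage of XH7, 7 of the 10 genes rose, none fell and 3 did not pass (TAT1, GAP1 and DIP5). Of all genes tested, 48.7% passed in this comparison, 26.7% as rises and 22.0% as falls. The 10 genes were chosen with this result known, so nothing is read from the count. In BSGX001, 4 rose (BAP2, GNP1, DIP5 and VBA5), AGP1 fell and 5 did not pass, beside 47.7% of all genes (23.0% rises, 24.7% falls). Leaving out 1 library at a time gave 3 to 8 members past the limit in BSGX001, 3 when replicate 1 of either stage and 8 when X replicate 2 was left out. The median log2 change of the members was 1.12 in XH7 and 0.43 in BSGX001, beside 0.04 and -0.02 for all genes. With a ratio of 2 or more also required, 6 members rose in XH7, beside 12.4% of all genes (6.57% rises, 5.88% falls). By this rule 2 members rose in BSGX001, DIP5 and VBA5, beside 8.80% of all genes (6.77% rises, 2.03% falls). BAP2 of XH7 fell short at a ratio just under 2.

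**Figure D3:**
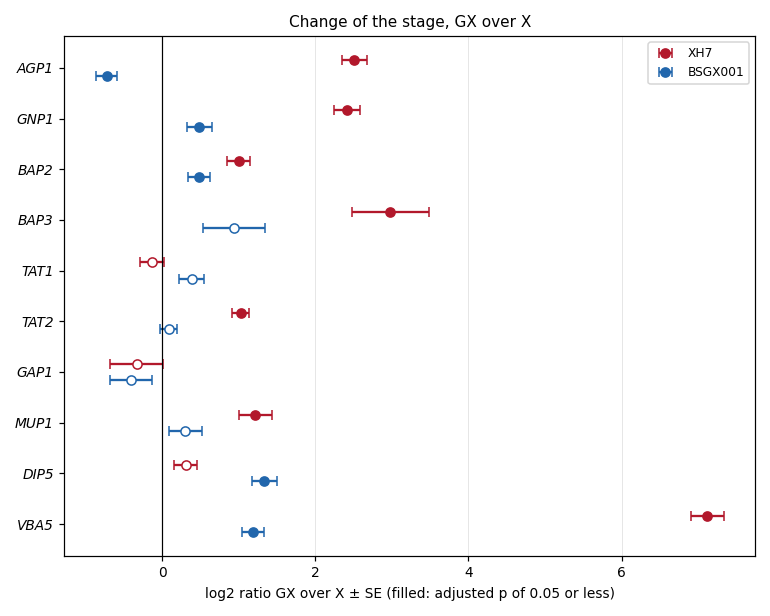
Log2 ratio of GX over X cells ± standard error for the 10 genes in XH7 (upper point of each pair) and BSGX001 (lower point), filled where the adjusted p was 0.05 or less. AGP1 lies on opposite sides of 0 in the strains, at 2.51 in XH7 and -0.72 in BSGX001, and VBA5 of XH7 lies at 7.12.

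Between the strains, 8 members were higher in XH7 in the GX stage, GAP1 was lower and BAP3 did not pass, beside 66.0% of all genes (33.4% higher, 32.6% lower). In the X stage TAT1 and DIP5 were higher in XH7, AGP1, GAP1, BAP3 and VBA5 were lower and 4 did not pass, beside 55.5% of all genes (26.5% higher, 29.0% lower). Of these, AGP1 and VBA5 were above BSGX001 in the GX stage and below it in the X stage. The stage change differed between the strains for 7 members, 6 with a higher value in XH7 and DIP5 with a lower one, beside 29.6% of all genes (15.4% higher, 14.2% lower). With a ratio of 2 or more also required, 6 members were higher and 1 lower in XH7 in the GX stage, beside 24.0% of all genes (10.8% higher, 13.2% lower). The same rule gave 2 higher and 4 lower in the X stage, beside 15.5% (6.20% higher, 9.32% lower), and 4 higher and 1 lower for the difference, beside 11.6% (4.90% higher, 6.65% lower). The 4 comparisons of stages and strains and the difference share libraries and are not independent of each other. With library totals in place of TMM, the share of rises among all called genes was 73.8%, against 54.8%, in the stage change of XH7, 24.8%, against 47.7%, for the strains in the X stage, and 73.2%, against 52.1%, for the difference. The median change of all genes shifted with it, to 0.24, -0.32 and 0.24 in these 3 comparisons.

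**Figure D4:**
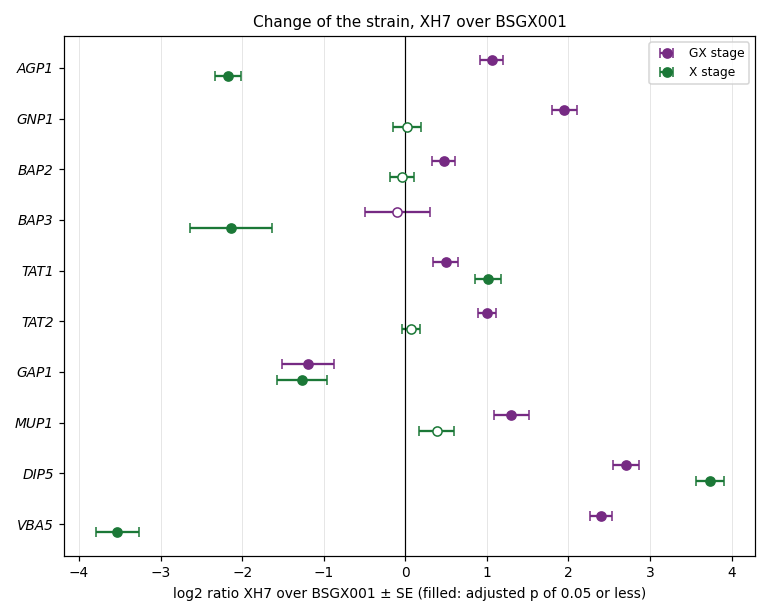
Log2 ratio of XH7 over BSGX001 ± standard error for the 10 genes in the GX stage (upper point of each pair) and the X stage (lower point), filled where the adjusted p was 0.05 or less. DIP5 lies above 0 in both stages (2.71 and 3.73), GAP1 below 0 in both (-1.19 and -1.27), and VBA5 at 2.40 and -3.53.

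The summed level of the 9 permeases was 2206 and 2318 CPM in GX cells of XH7, against 1084 and 1134 CPM in X cells. In BSGX001 it was 949.6 and 898.2 CPM in GX cells, against 682.9 and 834.9 CPM in X cells. MUP1 and DIP5 made up the larger part of the sum in XH7, where they were also the highest per length. Their FPKM in GX cells of XH7 was 418.38 and 495.27 for MUP1 and 326.91 and 332.76 for DIP5. In X cells of XH7 the order was turned, with 197.39 and 264.34 for DIP5 and 193.94 and 148.74 for MUP1.

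Below these, the FPKM order in GX cells of XH7 was BAP2, VBA5, GNP1, TAT2, AGP1, BAP3, TAT1 and GAP1, in which VBA5 and GNP1, and GNP1 and TAT2, overlapped. In X cells of XH7 it was BAP2, TAT2, GNP1, AGP1, TAT1, GAP1, BAP3 and VBA5, in which AGP1 and TAT1, and TAT1 and GAP1, overlapped. VBA5 thus stood last in X cells of XH7, at 0.49 and 1.18 FPKM, and was exceeded only by MUP1, DIP5 and BAP2 in GX cells, at 145.42 and 134.81 FPKM. In GX cells of BSGX001 the order was MUP1, BAP2, BAP3, TAT2, DIP5, AGP1, GNP1, VBA5, GAP1 and TAT1, and no neighbours overlapped. In X cells of BSGX001 it was MUP1, BAP2, AGP1, TAT2, BAP3, GAP1, GNP1, DIP5, VBA5 and TAT1, in which BAP2 and AGP1, and each neighbouring pair from TAT2 to DIP5, overlapped. The tables give BAP2 a length of 921 bases, whereas its coding sequence in R64 has 1830, so its FPKM refers to a shorter gene model. The lengths of the other members matched R64.

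The genes whose CPM ran most like each member over the 8 libraries were found by the root mean square difference of log2 CPM, each gene centred on its own mean, among 5470 genes that were not members. The nearest was PML1 to TAT2, at 0.0589. ZNF1, which encodes a zinc finger transcription factor of respiratory growth, was nearest to DIP5, at 0.23, and DAL4, the allantoin permease, was nearest to GNP1, at 0.25. ZNF1 had 561 and 629 CPM in GX cells of XH7, against 342 and 333 CPM in X cells, and 80.8 and 77.4 CPM in GX cells of BSGX001, against 26 and 29.2 CPM in X cells. DAL4 had 66.5 and 57.5 CPM in GX cells of XH7, against 16.8 and 19.9 CPM in X cells, while its 4 BSGX001 libraries held 12.1 to 20.9 CPM. IDP2 was nearest to AGP1 (0.39), SCW10 to GAP1 (0.21), LST7 to BAP2 (0.12), YET2 to BAP3 (0.54), POG1 to TAT1 (0.11) and XRS2 to MUP1 (0.17). VBA5 had no close partner by this measure, which grows with the size of a change, with YPR078C nearest at 1.32. The correlation of VBA5 with YPR078C was 0.943. The nearest genes of the other members had correlations from 0.925 (YET2 with BAP3) to 0.992 (PML1 with TAT2). Among the members themselves BAP2 and TAT2 were the closest pair (0.27). These likenesses are over the same 8 libraries of 4 groups and carry no test.

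Other amino acid permeases moved in both directions. AGP2 was not analysed here, and of the 10 others 4 rose and 2 fell in XH7 (median 0.19), while 3 rose and 1 fell in BSGX001 (median 0.17). Adjusted p values of this and the following lists are from the edgeR quasi-likelihood test with Benjamini-Hochberg adjustment over all genes. The lists were chosen with earlier results of these data known, and the named genes are among their largest changes past the limit. Their p values therefore describe the fit and are not independent tests of these genes. The shares of all genes that passed in these stage changes were 48.7% in XH7 and 47.7% in BSGX001, as above. With 1 library left out, 4 to 9 of the 10 passed in XH7, 4 without X replicate 1 of XH7 and 9 without X replicate 1 of BSGX001, and 3 to 5 in BSGX001. CAN1, the arginine permease, fell in the GX stage of XH7 (-1.36 ± 0.14, adjusted p = 7.68e-05) and of BSGX001 (-0.54 ± 0.14, adjusted p = 0.00997), where the call was lost when X replicate 1 (-0.33), GX replicate 1 (-0.58) or GX replicate 2 (-0.50) was left out. It had 111 and 103 CPM in GX cells of XH7, against 251 and 297 CPM in X cells. AGP3, which carries serine, aspartate and glutamate, rose by 0.82 ± 0.14 in XH7 (adjusted p = 0.00104) and by 1.93 ± 0.14 in BSGX001 (adjusted p = 2.03e-05). PUT4, the proline permease, rose by 1.62 ± 0.35 in XH7 (adjusted p = 0.00457), where its level was the lower one in both stages, 21.2 and 29.7 CPM in GX cells and 9.6 and 7.04 CPM in X cells, against 88.8 and 93.8 CPM in GX cells and 119 and 68.3 CPM in X cells of BSGX001.

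ALP1, a permease of basic amino acids, rose by 1.57 ± 0.28 in BSGX001 (adjusted p = 0.00189), and by 2.28 with X replicate 2 left out. In the GX stage XH7 was below BSGX001 in ALP1 (-2.09 ± 0.31, adjusted p = 0.000273) and in UGA4, the permease of gamma-aminobutyrate (-2.64 ± 0.20, adjusted p = 5.53e-06). It was above BSGX001 in LYP1, the lysine permease (0.94 ± 0.12, adjusted p = 0.000119), and in HIP1, the histidine permease (0.78 ± 0.11, adjusted p = 0.000174). MUP3, the low-affinity methionine permease, fell by 0.47 ± 0.10 in XH7 (adjusted p = 0.00328), opposite to MUP1, and the call was lost on log2(FPKM + 1) (-0.26). Of the 10 genes, 2 were higher and 4 lower in XH7 in the GX stage, beside 66.0% of all genes past the limit. In the X stage 4 were higher and 3 lower, beside 55.5% of all genes.

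**Figure D5:**
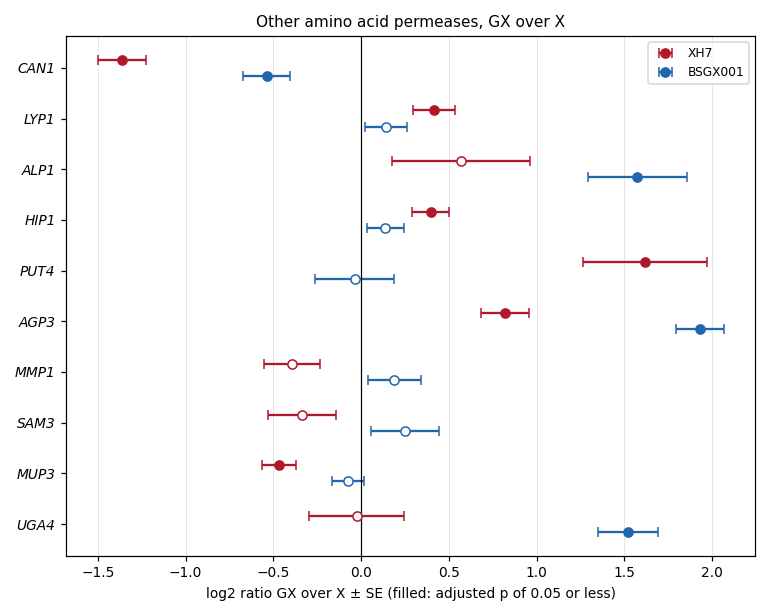
Log2 ratio of GX over X cells ± standard error for the 10 other amino acid permeases in XH7 (upper point of each pair) and BSGX001 (lower point), filled where the adjusted p was 0.05 or less. CAN1 lies below 0 in both strains (-1.36 and -0.54) and AGP3 above 0 in both (0.82 and 1.93).

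In the SPS sensor pathway, 1 of 10 genes rose in XH7, beside 48.7% of all genes past the limit, SSY1, the sensor itself (0.43 ± 0.10, adjusted p = 0.00552, lost at 0.36 with X replicate 2 left out), and none fell. In BSGX001, 3 rose and 1 fell, beside 47.7% of all genes, and 2 passed with GX replicate 2 of BSGX001 left out. Among the 4 were PTR3 (0.61 ± 0.13, adjusted p = 0.00354) and DAL81, a coactivator of the permease genes (-0.58 ± 0.11, adjusted p = 0.00236). The median log2 change was 0.03 in XH7 and 0.17 in BSGX001. SSY5, the protease that releases Stp1 and Stp2, was lower in XH7 in the GX stage (-0.85 ± 0.11, adjusted p = 8.84e-05) and in the X stage (-0.99 ± 0.11, adjusted p = 7.29e-05). STP1 was higher in XH7 in the X stage (0.55 ± 0.10, adjusted p = 0.00157, lost on log2(FPKM + 1) at 0.26), and so was STP2 (0.47 ± 0.11, adjusted p = 0.00501), which did not pass with library totals (0.18). Messenger RNA levels do not report the processing of these factors.

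Among the regulators of nitrogen catabolite repression, GAT1, a GATA activator, had 32.1 and 25.6 CPM in GX cells of XH7, against 100 and 110 CPM in GX cells of BSGX001. It was lower in XH7 in the GX stage (-1.86 ± 0.18, adjusted p = 2.07e-05) and in the X stage (-2.37 ± 0.18, adjusted p = 1.27e-05). URE2, which holds GATA activators in the cytoplasm, was higher in XH7 in both stages (1.04 ± 0.10, adjusted p = 2e-05 in GX, and 0.55 ± 0.10, adjusted p = 0.00126 in X, lost on log2(FPKM + 1) at 0.25). Over the stage change, 2 of 5 fell in XH7 (GLN3 and GZF3, neither with library totals) and none rose, beside 48.7% of all genes. In BSGX001, 1 rose and 2 fell, beside 47.7% of all genes. In XH7, 1 or fewer of the 5 passed with X replicate 1, X replicate 2 or GX replicate 1 of XH7 or either GX replicate of BSGX001 left out. GCN4, the activator of general amino acid control, was at 4150 and 3970 CPM in GX cells of XH7, against 2050 and 2050 CPM in GX cells of BSGX001 (0.98 ± 0.12, adjusted p = 0.000103), and was higher in the X stage as well (1.07 ± 0.12, adjusted p = 0.000117). GCN4 is controlled mainly by translation, which these libraries do not measure.

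Of 8 genes for packaging and turnover of permeases (ALY1 was not analysed here), 3 rose and 3 fell in XH7, and 1 rose and 2 fell in BSGX001, beside 48.7% and 47.7% of all genes. In XH7, 2 of the 8 passed with X replicate 2 of XH7 left out, 4 with X replicate 1 left out and 3 with DESeq2. In BSGX001, 2 genes passed without X replicate 1 or GX replicate 2. The chaperone gene SHR3, needed for permeases to leave the endoplasmic reticulum, fell in BSGX001 (-0.58 ± 0.10, adjusted p = 0.00139). The arrestin gene ECM21 fell in XH7 (-0.68 ± 0.14, adjusted p = 0.00339). RSP5, the ubiquitin ligase that marks permeases for removal, fell in XH7 (-0.47 ± 0.11, adjusted p = 0.00595), which did not pass with library totals (-0.27).

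Of 16 genes of vacuolar amino acid transporters, 4 rose and 4 fell in XH7, beside 48.7% of all genes. The rises include VBA3, whose reads cannot all be told apart from those of VBA5. In BSGX001, 6 rose and 4 fell, beside 47.7% of all genes. In BSGX001, 5 of the 16 passed with GX replicate 2 of BSGX001 left out. ATG22, which exports amino acids from the vacuole, rose by 1.03 ± 0.12 in XH7 (adjusted p = 0.000158) and by 0.62 ± 0.12 in BSGX001 (adjusted p = 0.00282). RTC2, a vacuolar transporter of basic amino acids, fell in XH7 to 14.8 and 12.2 CPM in GX cells, against 56.9 and 97.7 CPM in X cells (-2.52 ± 0.27, adjusted p = 9.81e-05). Of 4 peptide and allantoate transporters, 2 rose and none fell in XH7, and 2 rose and 1 fell in BSGX001, where 1 passed without X replicate 1 or GX replicate 2. In XH7, 1 passed without X replicate 2 or GX replicate 2. PTR2, the di- and tripeptide transporter, rose by 1.23 ± 0.15 in XH7 (adjusted p = 0.000168) and by 0.85 ± 0.14 in BSGX001 (adjusted p = 0.00128).

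Of 7 genes of amino acid breakdown, 3 rose and 1 fell in XH7, beside 48.7% of all genes past the limit. In BSGX001, 2 rose and 1 fell, beside 47.7% of all genes. BAT1, the mitochondrial branched-chain aminotransferase, fell to 148 and 122 CPM in GX cells of XH7, against 1140 and 1340 CPM in X cells (-3.20 ± 0.15, adjusted p = 2.34e-06), and fell in BSGX001 too (-0.95 ± 0.14, adjusted p = 0.000663). BAT2, its cytosolic counterpart, rose in both, by 0.86 ± 0.16 in XH7 (adjusted p = 0.00179) and by 1.45 ± 0.16 in BSGX001 (adjusted p = 0.000199). CHA1, the serine and threonine deaminase, which is induced by serine and threonine, rose in XH7 (1.92 ± 0.23, adjusted p = 0.000162), with 33.1 and 37.6 CPM in GX cells, against 6.83 and 11.5 CPM in X cells. It held 2.57 to 3.59 CPM in BSGX001. ARO9 and ARO10, of aromatic amino acid breakdown, were lower in XH7 in both stages (ARO9 at -3.24 ± 0.20 in GX and -2.74 ± 0.19 in X, ARO10 at -3.37 ± 0.25 in GX and -3.18 ± 0.24 in X, with adjusted p from 1.68e-06 to 1.22e-05).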

How the data were processed

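RNA was extracted with a Trizol kit, enriched with oligo(dT) beads and sequenced on an Illumina HiSeq instrument. The authors deposited, for each sample, expected counts (estimated, unscaled) and FPKM per gene. The submitters' notes name build R64. Aligner, counter and strand were not given in the sources used here. Deposited tables of the authors' own comparisons (mean FPKM, log2 ratio, probability) were not used.

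Expected counts were rounded and fitted with edgeR 4.0.16 in R 4.3.3 (quasi-likelihood F test, 4 groups, TMM, filterByExpr with a minimum count of 10), with Benjamini-Hochberg adjustment over 5921 genes. A count of 0 was given a limit of 3 counts, which covers counting error only. The samples are duplicate fermentations, so p values measure the spread between these. Members and lists were chosen with earlier results of these data known. All members are named, and from each list up to 2 genes with the largest rise and fall past the limit per comparison (mean log2 CPM of 3 or more), some left out for length. VBA3 was named as the nearest relative of VBA5. Nearest genes were taken by root mean square difference. Coding sequences were compared with BLAST+ 2.17.0, since no protein table was used here. Alternatives were DESeq2 size factors, library totals, DESeq2, limma on log2(FPKM + 1) or log2(FPKM + 0.1), other filters, fits of the 4 samples compared, a replicate block, VBA5 and VBA3 added together, a 2-fold limit and leaving out each library.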

Additional observations from a re-analysis of the deposited data

Results flagged for a closer look

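The stage change differed between the strains for 7 of the 10 genes, beside 29.6% of all genes. The 10 were chosen with these changes known, so nothing is read from the count. The difference, XH7 minus BSGX001 on the log2 scale, was 5.93 for VBA5, 3.24 for AGP1, 2.04 for BAP3, 1.93 for GNP1, 0.94 for TAT2, 0.92 for MUP1 and -1.02 for DIP5. Of these, AGP1 is the one that passed the limit in opposite directions, up in XH7 and down in BSGX001. With 1 library left out, the difference ranged from 0.88 to 2.63 for BAP3 and from 0.505 to 1.19 for MUP1. Neither of these 2 calls held with the replicate block.

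Among the listed genes that are not members, up to 2 per list in each direction are named here. Past the limit were 1 higher and 3 lower of 10 other amino acid permeases, and 2 and 3 of 16 vacuolar transporters. The SPS list had 1 and 2 of 10, amino acid breakdown 1 and 2 of 7, packaging and turnover 1 and 1 of 8. GATA regulators had 1 higher of 5, peptide and allantoate transporters 1 higher of 4, general amino acid control none of 4. Of all genes, 29.6% passed (15.4% higher, 14.2% lower). The difference passed the same limit for CHA1 (1.75), PUT4 (1.65), OPT2 (1.27), AVT2 (0.77), SHR3 (0.61), AVT1 (0.60), DAL81 (0.50) and URE2 (0.49) with a higher value in XH7. It passed for RTC2 (-2.64), BAT1 (-2.25), UGA4 (-1.55), AGP3 (-1.11), ECM21 (-0.96), ARO80 (-0.70), ASI2 (-0.64), PTR3 (-0.63) and AVT3 (-0.54) with a lower one. Of these, RTC2, BAT1, UGA4, AGP3 and ECM21 passed in all fits that left out 1 library, and each of the others did not pass in at least 1 such fit. Groups of 2 libraries allow no check for a library far from the rest.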

How the results depend on the processing

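Each result was recomputed under up to 19 alternatives. Of 895 values of the members, 822 kept their direction and their side of the limit, 47 no longer passed, 10 newly passed and 16 turned. The 895 include the 2-fold limit on the same fit and fits without a library outside the comparison, which move a value little but can change a call. Values that passed in neither fit count as kept, so the 822 do not measure how stable the calls are. The count of members past the limit in the stage change of BSGX001, 5 in the main fit, was 3 to 8 with 1 library left out and 2 with the 2-fold limit. The same counts with 1 library left out were 7 to 8 in the stage change of XH7 (main 7), 7 to 9 for the strains in the GX stage (main 9), 5 to 7 in the X stage (main 6) and 5 to 8 for the difference (main 7). The values that turned were all of genes not past the limit in the main fit. With library totals, log2(FPKM + 1) and log2(FPKM + 0.1), they were the stage change of TAT1 in XH7 (0.0643, 0.054 and 0.058) and the X stage gap of GNP1 (-0.26, -0.24 and -0.25) and TAT2 (-0.22, -0.22 and -0.23). With 1 library left out, they were the stage change of GAP1 in BSGX001 (-0.837 to 0.25), the X stage gap of BAP2 (-0.185 to 0.16, positive without replicate 2 of either strain) and of GNP1 (-0.16 without replicate 1 of BSGX001), the GX stage gap of BAP3 (0.0704 without replicate 1 of BSGX001) and the difference for GAP1 (-0.61 to 0.504, negative without replicate 1 of BSGX001 X or replicate 2 of XH7 X). The cause was not tested. Replicate numbers do not pair the samples by any label, and the correlations of replicate differences between groups ran from -0.28 to 0.27. With the replicate block, members past the limit numbered 7 and 4 in the stage changes of XH7 and BSGX001, 9 and 6 for the strains in GX and X, and 5 for the difference, without GNP1 in BSGX001 and BAP3 and MUP1 in the difference. Depth limits VBA5 in X cells of XH7.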
